A study of Mus musculus with 6 samples.

Results

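The insulin-like growth factor (IGF) system was followed through 7 genes, namely the ligand Igf2, the receptors Igf1r and Igf2r, and the binding proteins Igfbp2, Igfbp3, Igfbp4 and Igfbp5. All probe sets annotated to 1 of these symbols alone were taken, which gave 20 of the 45101 probe sets on the array and 7 of 18193 named genes. The genes were picked with the difference between the days already in view, so that difference is described for them without a test. The cells were mouse embryonic stem cells of the line E14 (background 129P2/OlaHsd) carrying a reporter that places the fluorescent protein Venus under Msgn1, a transcription factor gene of the presomitic mesoderm. All cultures received 15% fetal bovine serum, 0.5% DMSO, 10 ng/mL R-spondin3, which potentiates Wnt signalling, and 200 ng/mL Noggin, which blocks BMP ligands. Venus-positive cells were sorted at day 4 (3 arrays) or day 3 (3 arrays) of the same monolayer culture, with no untreated or Venus-negative cells among the samples. The replicates of each day are labelled biological, and only 1 reporter line was used.

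IGF ligands drive growth of the embryo by activating the receptor tyrosine kinase encoded by Igf1r, and insulin receptors can also respond to Igf2. Igf2r carries Igf2 to the lysosome for destruction instead of signalling, and in the mouse Igf2 is expressed from the paternal and Igf2r from the maternal allele. Secreted binding proteins hold IGFs in complexes, and proteases such as Pappa release the ligand by cutting them. Bovine serum is itself a source of IGFs.

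Signals are linear MAS5 intensities, and means are given ± SD over 3 arrays per day. Each change is the log2 signal of day 4 less that of day 3, with the SE from limma. A probe set with a mean signal under 13.5, the 40th percentile of all probe sets, was called dim and was not fitted. The arrays stood at a common level, with trimmed means of 160.3 to 162.1. Day 4 replicate 1 stood apart in control probe sets. The 3′ end of Gapdh read 14.0 times its 5′ end there, while the remaining 5 arrays gave 2.43 to 3.19, and for Actb this ratio was 6.71 there and 2.77 to 3.84 elsewhere. Values without it are given for some of the genes. Intensities of different probe sets are not on a common scale, so levels are compared between days and never between genes.

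In this gate, going by the brightest probe set of each gene, the ligand and both receptors had higher signals at day 4 than at day 3. Igfbp2 and Igfbp3 had lower ones, and Igfbp4 and Igfbp5 overlapped between the days. The weaker Igf1r probe sets did not all share its rise. On the brightest probe set of each gene, the 3 arrays of each day did not overlap for 5 of the 7 genes, and over all genes tested the same was so for 41.4%, 20.7% with day 4 higher and 20.6% with day 4 lower. Nothing is read from that count, since the genes were chosen on this contrast. Of the 20 probe sets, 18 lay above the filter and 2 were dim. The days were apart on 11 of those 18, 7 with day 4 higher and 4 with day 4 lower, beside 38.9% of all named probe sets above the filter. Whether fewer cells of a kind or less RNA per cell lay behind a lower signal cannot be told apart in sorted bulk samples.

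**Figure D1:**
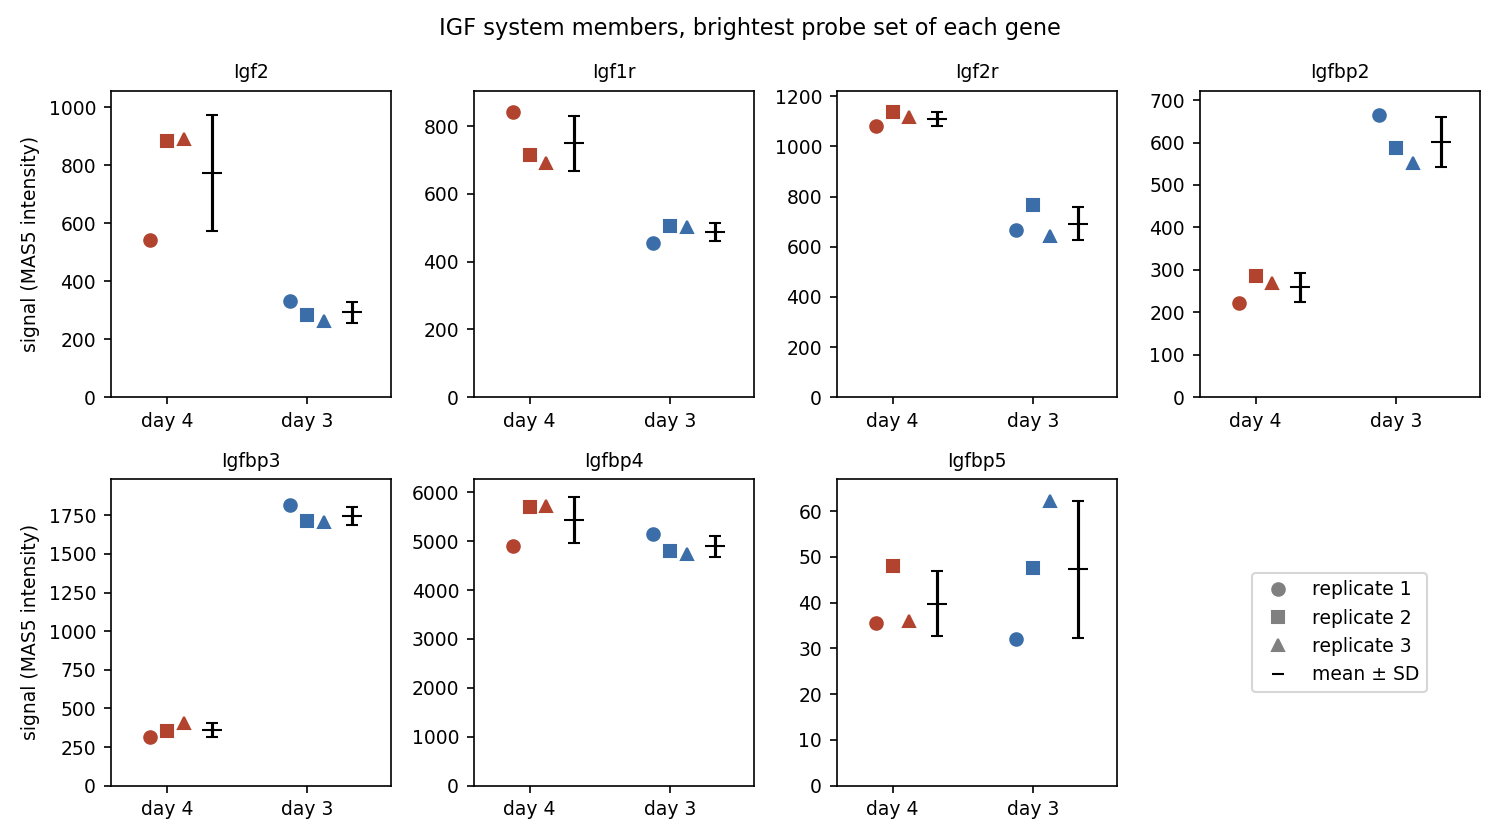
Signal (linear MAS5 intensity) of the brightest probe set of each of the 7 genes on the day 4 arrays (red, left) and the day 3 arrays (blue, right), with symbols for the replicate number and bars for the mean ± SD of 3 arrays. Igf2, Igf1r and Igf2r lie higher at day 4 on every array, Igfbp2 and Igfbp3 lie lower on every array, and Igfbp4 and Igfbp5 overlap.

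Igf2, the ligand, read 541, 884 and 890 on the day 4 arrays and 330, 284 and 262 on the day 3 arrays. All day 4 arrays were above all day 3 arrays, and the lowest of them was replicate 1, the array with the raised 3′ to 5′ ratio. The means were 772 ± 200.0 at day 4 and 292 ± 35.1 at day 3, a change of 1.37 ± 0.19 or 2.59-fold. Without day 4 replicate 1 the change was 1.61. The other Igf2 probe set was dim, with 5.62, 24.4 and 15.8 at day 4 and 11.8, 14.8 and 6.03 at day 3, so the days overlapped. The higher Igf2 signal thus rests on 1 probe set.

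Igf1r, the signalling receptor, read 843, 715 and 692 at day 4 and 456, 505 and 502 at day 3 on its brightest probe set. The days were apart, with means of 750.0 ± 81.1 at day 4 and 488 ± 27.1 at day 3 and a change of 0.62 ± 0.10, or 1.53-fold. A further probe set moved alike, with 312, 312 and 350.0 at day 4 and 245, 196 and 219 at day 3 (0.56 ± 0.12). The other 3 Igf1r probe sets did not. One of them read 20.6, 18.3 and 20.3 at day 4 and 26.7, 30.4 and 34.0 at day 3, so it was lower on every day 4 array (-0.62 ± 0.25). The remaining pair overlapped between the days, with changes of -0.018 ± 0.21 and -0.046 ± 0.40. These 3 were weak, with day means of 19.7 to 56.8, and averaging the 5 probe sets of Igf1r brought the change to 0.10. The higher Igf1r signal at day 4 is therefore a statement about its 2 brightest probe sets, and which transcript ends the 5 read is not given in the sources used here.

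Igf2r, the receptor that clears Igf2, read 1081, 1136 and 1117 at day 4 and 666, 766 and 643 at day 3. Its means were 1111 ± 28.0 at day 4 and 692 ± 65.7 at day 3, a change of 0.69 ± 0.09 or 1.61-fold. The other Igf2r probe set read 185, 229 and 231 at day 4 and 153, 105 and 127 at day 3 (0.75 ± 0.16). Both probe sets were thus higher on every day 4 array, and the change of the brighter one stayed between 0.64 and 0.76 when any 1 array was left out.

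Igfbp3, a binding protein that carries IGFs in complexes and also has effects of its own on cells, differed most among the 7 genes. It read 318, 354 and 405 at day 4 and 1816, 1714 and 1707 at day 3. The days were far apart, with means of 359 ± 44.1 at day 4 and 1746 ± 61.1 at day 3. The change was -2.29 ± 0.10, so the day 3 signal was 4.88 times that of day 4. In absolute size this exceeded the change of 99.7% of the genes tested, a rank on the contrast that was in view when the gene was picked. The other Igfbp3 probe set read 82.0, 91.9 and 123 at day 4 and 434, 396 and 459 at day 3 (-2.14 ± 0.16), so both probe sets gave nearly the same picture.

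Igfbp2, which binds Igf2 with high affinity, read 221, 285 and 270.0 at day 4 and 666, 587 and 551 at day 3. Every day 4 array was lower, with means of 259 ± 33.2 at day 4 and 601 ± 59.0 at day 3. The change was -1.22 ± 0.12, a day 3 signal 2.33 times that of day 4. Igfbp2 had a single probe set. Without day 4 replicate 1 its change was -1.11, and that of Igfbp3 was -2.20.

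Igfbp4, a binding protein that mostly inhibits IGF action until Pappa cuts it, was bright on both days. Its brightest probe set read 4896, 5700 and 5723 at day 4 and 5145, 4806 and 4729 at day 3. The days overlapped only through day 4 replicate 1, and the change was 0.15 ± 0.07. A further pair of Igfbp4 probe sets had all day 4 arrays higher. One read 2599, 3278 and 3131 at day 4 and 2292, 2055 and 2141 at day 3 (0.47 ± 0.10). The other read 4116, 4904 and 4407 at day 4 and 4110, 3677 and 3347 at day 3 (0.27 ± 0.09). The next 2 by brightness overlapped (0.21 ± 0.19 and 0.16 ± 0.23), with day 4 replicate 1 as the lowest of all 6 arrays. The sixth was dim. All 5 fitted probe sets thus gave changes from 0.15 to 0.47, none of them lower at day 4.

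Igfbp5, a binding protein that also attaches to the extracellular matrix, was weak. It read 35.6, 47.9 and 35.9 at day 4 and 32.1, 47.5 and 62.2 at day 3, a change of -0.21 ± 0.27. Its other probe set read 26.9, 29.9 and 21.3 at day 4 and 35.6, 20.6 and 25.7 at day 3 (-0.048 ± 0.29). The days overlapped on both, and leaving out 1 array moved the brighter one between -0.46 and 0.013. Igfbp5 lies beside Igfbp2 on mouse chromosome 1 with no protein-coding gene between them in RefSeq, and the difference between the changes of these neighbours was not tested.

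**Figure D2:**
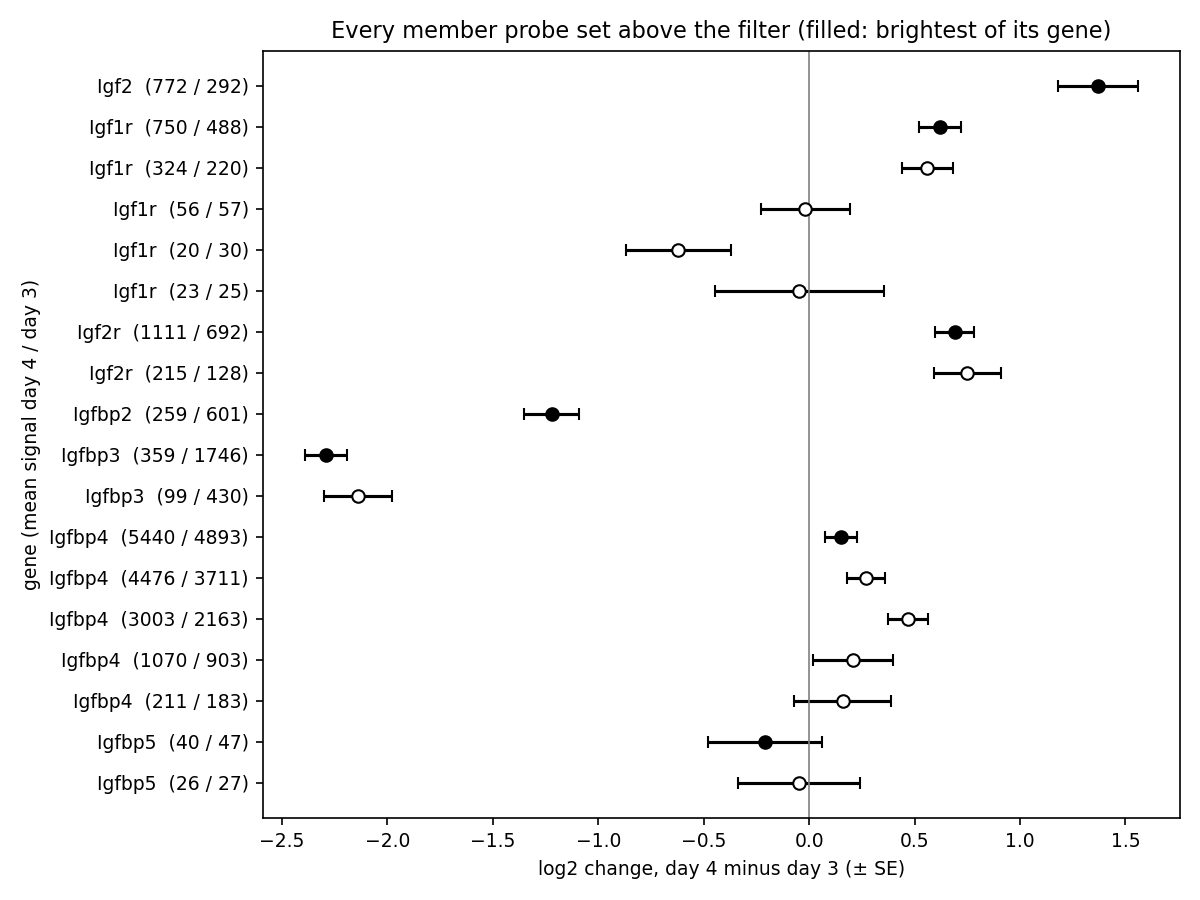
Log2 change (day 4 minus day 3, ± SE, each probe set fitted on its own) of the 18 probe sets above the filter, with the mean signal of day 4 and of day 3 beside each gene. Filled points mark the brightest probe set of a gene; the 2 Igfbp3 and the 2 Igf2r probe sets lie close together, and those of Igf1r run from 0.62 to -0.62.

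The upstream sequence is shown for 4 of the genes that were apart between the days. These are Igf2 and Igf2r, which were higher at day 4, and Igfbp2 and Igfbp3, which were lower. The windows are the 250 bases before a start site, on the gene's own strand, from RefSeq on GRCm38.p6. That table matched all 7 genes and held 11 windows for them. Igf2 had 4 start sites, of which the one furthest downstream is shown, and Igfbp2 had 2, of which the upstream one is shown. Capitals mark GC boxes (GGGCGG), E-boxes (CACGTG) and the run TATATA, on either strand. The windows are chr7:142657497-142657746 for Igf2 (minus strand), chr17:12769707-12769956 for Igf2r (minus strand), chr1:72824230-72824479 for Igfbp2 (plus strand) and chr11:7213924-7214173 for Igfbp3 (minus strand).
Igf2: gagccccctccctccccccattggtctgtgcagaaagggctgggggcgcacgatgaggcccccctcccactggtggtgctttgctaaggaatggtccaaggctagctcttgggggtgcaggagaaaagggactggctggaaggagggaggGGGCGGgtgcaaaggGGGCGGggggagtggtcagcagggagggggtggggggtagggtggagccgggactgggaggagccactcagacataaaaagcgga
Igf2r: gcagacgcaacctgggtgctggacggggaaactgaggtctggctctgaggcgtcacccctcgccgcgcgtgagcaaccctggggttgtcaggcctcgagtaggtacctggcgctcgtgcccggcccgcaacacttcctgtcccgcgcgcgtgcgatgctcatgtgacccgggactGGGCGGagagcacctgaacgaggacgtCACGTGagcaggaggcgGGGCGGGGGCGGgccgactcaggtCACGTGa
Igfbp2: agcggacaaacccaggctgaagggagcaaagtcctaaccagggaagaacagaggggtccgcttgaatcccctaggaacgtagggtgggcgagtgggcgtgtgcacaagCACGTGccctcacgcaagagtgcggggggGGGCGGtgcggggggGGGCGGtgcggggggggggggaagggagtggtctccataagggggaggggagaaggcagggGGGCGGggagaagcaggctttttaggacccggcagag
Igfbp3: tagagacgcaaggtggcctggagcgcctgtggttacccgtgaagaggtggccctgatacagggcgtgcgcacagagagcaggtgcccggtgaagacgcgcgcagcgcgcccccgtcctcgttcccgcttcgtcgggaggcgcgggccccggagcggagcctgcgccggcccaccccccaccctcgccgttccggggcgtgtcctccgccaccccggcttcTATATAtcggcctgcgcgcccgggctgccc
The Igf2r window held 3 GC boxes and 2 E-boxes, that of Igfbp2 held 3 GC boxes and 1 E-box, and that of Igf2 held 2 GC boxes. Igfbp3 held neither, and 1 match to TATATA. Among 32851 windows of the same length in the table, 32.7% held a GC box, 6.02% an E-box and 5.25% TATATA. Over all 11 windows of the 7 genes, 5 held a GC box, and the 3 other Igf2 windows and the other Igfbp2 window held 0, 0, 1 and 0 of them in the order of their start sites. The GC content was 66.0% for Igf2, 69.2% for Igf2r, 67.2% for Igfbp2 and 73.2% for Igfbp3, beside a median of 52.4% in that table. The 3 other Igf2 windows were at 50.8%, 47.6% and 68.8%, so 2 of them lay under that median, and the other Igfbp2 window was at 56.4%. CG dinucleotides numbered 6, 27, 14 and 32 in the same 4 windows, against a median of 6. Igf1r, also apart on its brightest probe set, is not shown. Its 1 window held 2 GC boxes and 42 CG dinucleotides at a GC content of 77.6%. The letters CTTTGAT, which TCF and LEF factors of the Wnt pathway can bind, were found in 0 of the 11 windows and in 3.21% of the table. TCACACCT, bound by T-box factors, was in 0 of 11 and in 1.12%. TATAAA was in the window of Igfbp4 alone among the 7 genes and in 12.4% of the table. No match overlapped one of another motif in the 11 windows, and these letter matches say nothing of whether a factor was bound.

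Genes with the most similar profile were found by the root mean square difference of log2 values, each centred on its own mean over the 6 arrays. For Igfbp3 the nearest were Fgf5, a growth factor of the primed epiblast (difference 0.0993), the guidance ligand Ntn1 (0.124) and Dppa2, a gene of pluripotent cells (0.141). Fgf5 read 101, 122 and 115 at day 4 and 529, 490.0 and 531 at day 3, much the same course as Igfbp3. For Igfbp2 the nearest were Dab1 (0.0629), Pdlim7 (0.0754) and Stx11 (0.0874), and for Igf2 they were Plat, which encodes tissue plasminogen activator (0.123), Cfc1, a Nodal coreceptor (0.142), and Spag16 (0.153). Among the day 4 arrays Plat, like Igf2, was lowest in replicate 1, a likeness that the choice by profile favours. Igf1r lay closest to Jun, Spg20 and Armcx3 (0.0283 to 0.0353) and Igf2r to Ppp3ca, Srr and Lztr1 (0.0276 to 0.0529). Igfbp4 lay closest to Srek1ip1, Birc2 and Zfp866 (0.0128 to 0.0201), and Igfbp5 to Zfp583, Hjv and Rspry1 (0.0701 to 0.109). These likenesses are a description of 6 arrays.

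The rest of the IGF and insulin pathway was read from a list of 61 further genes ordered by role. Of these, 49 were tested, 6 were dim and 6 had no probe set under their symbol alone. Signals of 11 rose and of 10 fell at day 4 by limma (adjusted p under 0.05), and 28 did not pass. That is 42.9% called, beside 22.2% of 12285 genes, 11.5% higher and 10.7% lower. The list was chosen with earlier results of these data known, so nothing is read from that excess. The counts by role below rest on few genes each. The median change of the 49 was -0.04, beside -0.01 over all genes tested. The count was 20 without day 4 replicate 1 and 12 without day 3 replicate 2.

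Among further ligands 1 was tested, and it did not pass. Igf1 was dim on all of its probe sets, the brightest with 14.6, 12.7 and 8.90 at day 4 and 19.8, 3.49 and 3.02 at day 3. Ins2, an insulin gene next to Igf2 on chromosome 7, read 33.9, 26.1 and 33.1 at day 4 and 32.5, 11.6 and 35.2 at day 3 (0.38 ± 0.41, adjusted p = 0.55). The receptors other than the members rose in 2 of 2 tested, beside 11.5% of all genes. Insr, the insulin receptor, read 447, 684 and 635 at day 4 and 268, 299 and 297 at day 3, so all day 4 arrays were higher (1.01 ± 0.15, adjusted p = 0.00185). Of its 3 probe sets this was the only one above the filter. Lrp1, an endocytic receptor with many ligands, was at 308 ± 8.10 at day 4 and 179 ± 21.9 at day 3 (0.79 ± 0.12, adjusted p = 0.00172). Insr thus rose alongside the higher signals of Igf2r and of the 2 brightest Igf1r probe sets described above.

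Of 5 further binding proteins, 0 of the 2 tested passed. Igfbp7 was at 37.2 ± 2.58 at day 4 and 45.1 ± 10.8 at day 3 (adjusted p = 0.461), and Igfbpl1 at 22.0 ± 4.40 and 29.6 ± 3.57 in the same order (adjusted p = 0.272). Igfbp1, Igfbp6 and Igfals were dim. Igfbp1 is the neighbour of Igfbp3 on chromosome 11, and it read 1.40, 0.831 and 0.970 at day 4 and 2.06, 6.84 and 1.43 at day 3, under the filter on every array.

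The proteases that cut binding proteins, taken with their inhibitors, changed in 3 of 4 tested genes, beside 22.2% of all genes. Pappa, a metalloprotease that cuts Igfbp4 and Igfbp5 and so frees IGF, read 114, 92.4 and 95.5 at day 4 and 24.0, 26.9 and 24.1 at day 3. It rose 4.01-fold (2.00 ± 0.18, adjusted p = 0.000105), and its other tested probe set went the same way. Stc2, a secreted inhibitor of Pappa, read 18.0, 21.2 and 26.2 at day 4 and 41.7, 47.7 and 43.2 at day 3. It fell by 1.04 ± 0.24 (adjusted p = 0.0127, and 0.0575 without day 3 replicate 2), and its other 2 tested probe sets went the same way. Htra1, a serine protease that can cut Igfbp5, fell to 387 ± 16.6 at day 4, against 633 ± 25.6 at day 3 (-0.71 ± 0.09, adjusted p = 0.000686). Stc1, the other stanniocalcin, was at 15.5 ± 6.14 at day 4 and 21.5 ± 9.64 at day 3 (adjusted p = 0.492), and the protease gene Pappa2 was dim. Pappa therefore rose while the transcripts of one of its inhibitors and of another protease fell.

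**Figure D3:**
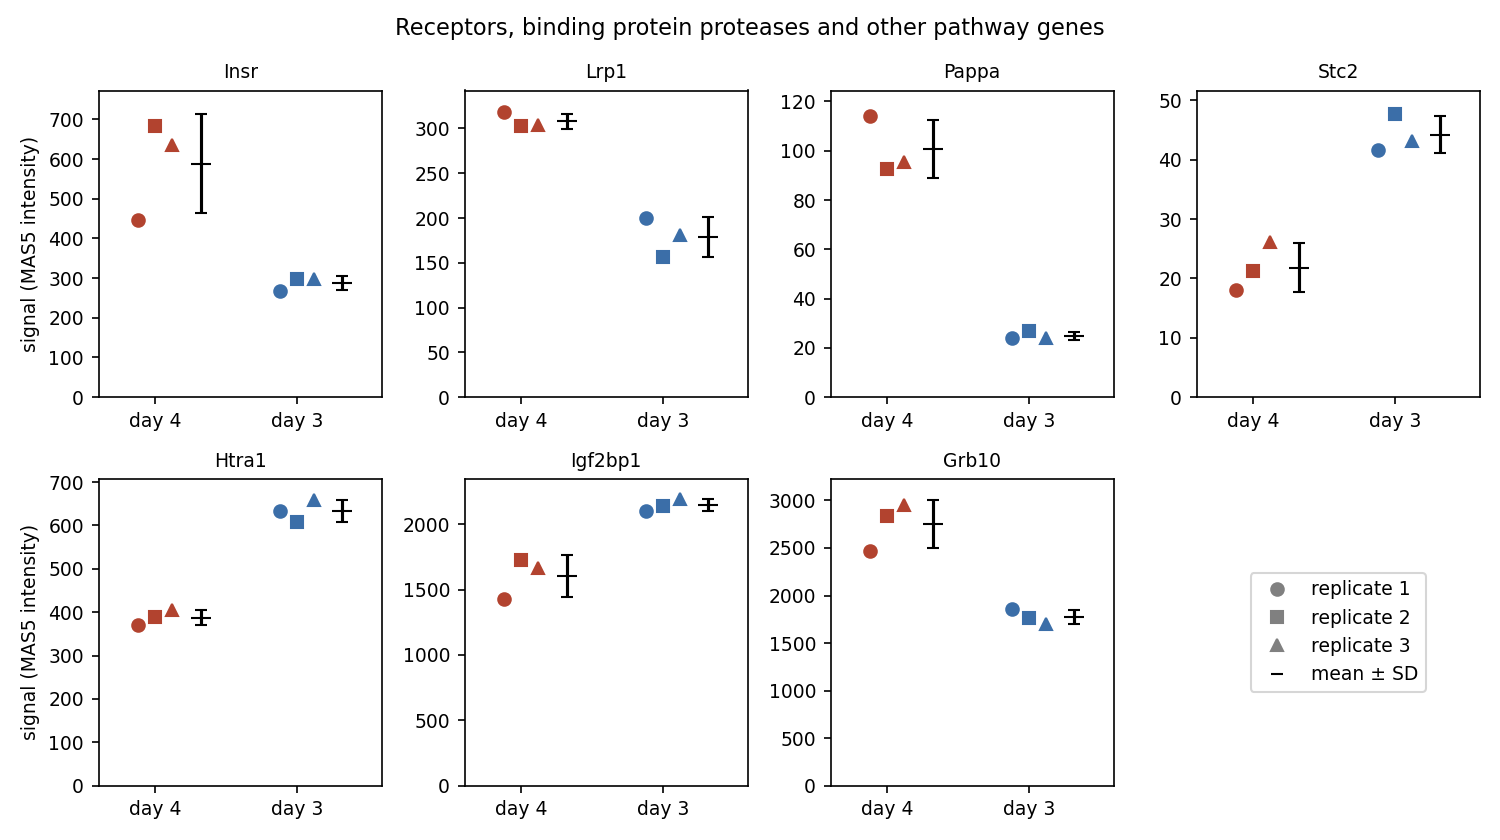
Signal (linear MAS5 intensity) of 7 pathway genes on the day 4 arrays (red, left) and the day 3 arrays (blue, right), with symbols for the replicate number and bars for the mean ± SD of 3 arrays. Insr, Lrp1, Pappa and Grb10 are higher and Stc2, Htra1 and Igf2bp1 lower on every day 4 array.

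Among genes that act on Igf2 RNA or its locus, 1 of 5 tested rose and 2 fell, beside 11.5% and 10.7% of all genes. Igf2bp1, which binds Igf2 and other mRNAs, read 1426, 1724 and 1664 at day 4 and 2104, 2136 and 2196 at day 3 (-0.42 ± 0.08, adjusted p = 0.00653). Its other 3 tested probe sets went the same way. Its relative Igf2bp3 did not pass and read 1826, 2299 and 2491 at day 4 and 2213, 2189 and 1882 at day 3 (0.07 ± 0.12, adjusted p = 0.727), and 1 of its other 5 tested probe sets agreed in direction. Hmga2, a chromatin protein known to raise Igf2bp2 expression, rose to 5534 ± 64.7 at day 4, against 3539 ± 244 at day 3 (0.65 ± 0.06, adjusted p = 0.000171). Plagl1, an imprinted zinc finger gene that acts on the Igf2 locus, fell by 1.50 ± 0.28 (adjusted p = 0.00526) with 28.1 ± 9.13 at day 4 and 77.5 ± 16.3 at day 3. Its other tested probe set went the other way, at 0.741 (adjusted p = 0.209), and the mean of both did not pass (adjusted p = 0.363). Igf2bp2 and H19 had no probe set under their symbol alone and were not analysed here.

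Receptor adaptors and their regulators split, with 4 of 12 tested higher and 3 lower, beside 11.5% and 10.7% of all genes. Grb10, an imprinted adaptor that restrains IGF and insulin receptors, rose to 2753 ± 253 at day 4, against 1773 ± 77.0 at day 3 (0.63 ± 0.08, adjusted p = 0.000781). Socs2, which dampens growth hormone signalling, rose by 0.90 ± 0.14 (adjusted p = 0.00198). The inhibitory adaptor Grb14 fell by 1.22 ± 0.21 to 25.3 ± 1.13 at day 4, against 59.6 ± 10.5 at day 3 (adjusted p = 0.00321). Grb2, which links receptors to Ras, fell by 0.54 ± 0.11 (adjusted p = 0.00708, and 0.234 as the mean over its probe sets). The docking proteins Irs1 and Irs2 did not pass. Irs1 was at 227 ± 21.1 at day 4 and 281 ± 24.9 at day 3 (adjusted p = 0.0903) and Irs2 at 231 ± 69.5 and 233 ± 32.2 in the same order (adjusted p = 0.9). The 3 other calls, named after their values were seen, were rises of Irs4 and Sos2 and a fall of Ptpn1 (adjusted p = 0.0222, 0.0184 and 0.0174). The Irs4 call did not hold when day 3 replicate 2 or 3 or day 4 replicate 2 or 3 was left out (0.0646, 0.0622, 0.0778 and 0.0844), with no filter (0.0567) and when its probe sets were averaged (0.17). Sos2 lost its call when day 3 replicate 1 or 2 or day 4 replicate 2 or 3 was absent (0.0673, 0.0745, 0.0559 and 0.0664), and Ptpn1 when day 3 replicate 2 or 3 or day 4 replicate 2 was (0.0566, 0.087 and 0.0725). The Ptpn1 call was also lost without probe sets of suffix _x_at, _s_at or _a_at (0.0573) and with eBayes without trend (0.0512).

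Of 14 tested genes of the PI3K, AKT and FOXO arm, which carries the signal inside the cell, 2 rose and 2 fell, a share of 28.6% beside 22.2% of all genes. Foxo1, a transcription factor held out of the nucleus by Akt, fell by 0.89 ± 0.10 to 225 ± 10.1 at day 4, against 417 ± 19.7 at day 3 (adjusted p = 0.000316), with its other 2 tested probe sets in the same direction. The remaining calls were less steady. Pdpk1, the kinase that activates Akt, rose by 0.50 ± 0.13 (adjusted p = 0.0233), and lost its call without day 3 replicate 1, 2 or 3 (0.0673, 0.0539 and 0.0979). Pik3cb, a catalytic subunit, fell by 0.58 ± 0.16 (adjusted p = 0.0254), and lost it without day 3 replicate 1, 2 or 3 or day 4 replicate 2 (0.0908, 0.0625, 0.0605 and 0.0872). Inppl1, a lipid phosphatase, rose by 0.48 ± 0.15 (adjusted p = 0.0442), which held in 1 of 6 fits with an array removed, the one without day 4 replicate 2. Its adjusted p was 0.146, 0.0864 and 0.0715 without day 3 replicate 1, 2 or 3 and 0.0519 and 0.0625 without day 4 replicate 1 or 3. Of 9 tested genes around mTORC1, a growth-promoting kinase complex, Tsc1, which inhibits it, rose by 0.46 ± 0.15 (adjusted p = 0.0492) and Akt1s1 fell by 0.80 ± 0.23 (adjusted p = 0.0322), so the share called was that of all genes. Tsc1 was called without day 4 replicate 3 and lost in the other 5 such fits (adjusted p = 0.14, 0.137 and 0.0844 without day 3 replicate 1, 2 or 3, and 0.0503 and 0.0609 without day 4 replicate 1 or 2). Akt1s1 lost its call when day 3 replicate 2 or 3 or day 4 replicate 1 or 2 was absent (0.0845, 0.137, 0.0517 and 0.0712). Some of these calls were also lost with all 6 arrays. That was so with no filter for Pik3cb (0.0504), Inppl1 (0.0594), Tsc1 (0.0647) and Akt1s1 (0.0729). With eBayes without trend it was so for Pdpk1 (0.0685), Inppl1 (0.106) and Tsc1 (0.102). Tsc1 was lost as well when its probe sets were averaged (0.149), after quantile normalization (0.0601) and after median centring (0.0634).

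**Figure D4:**
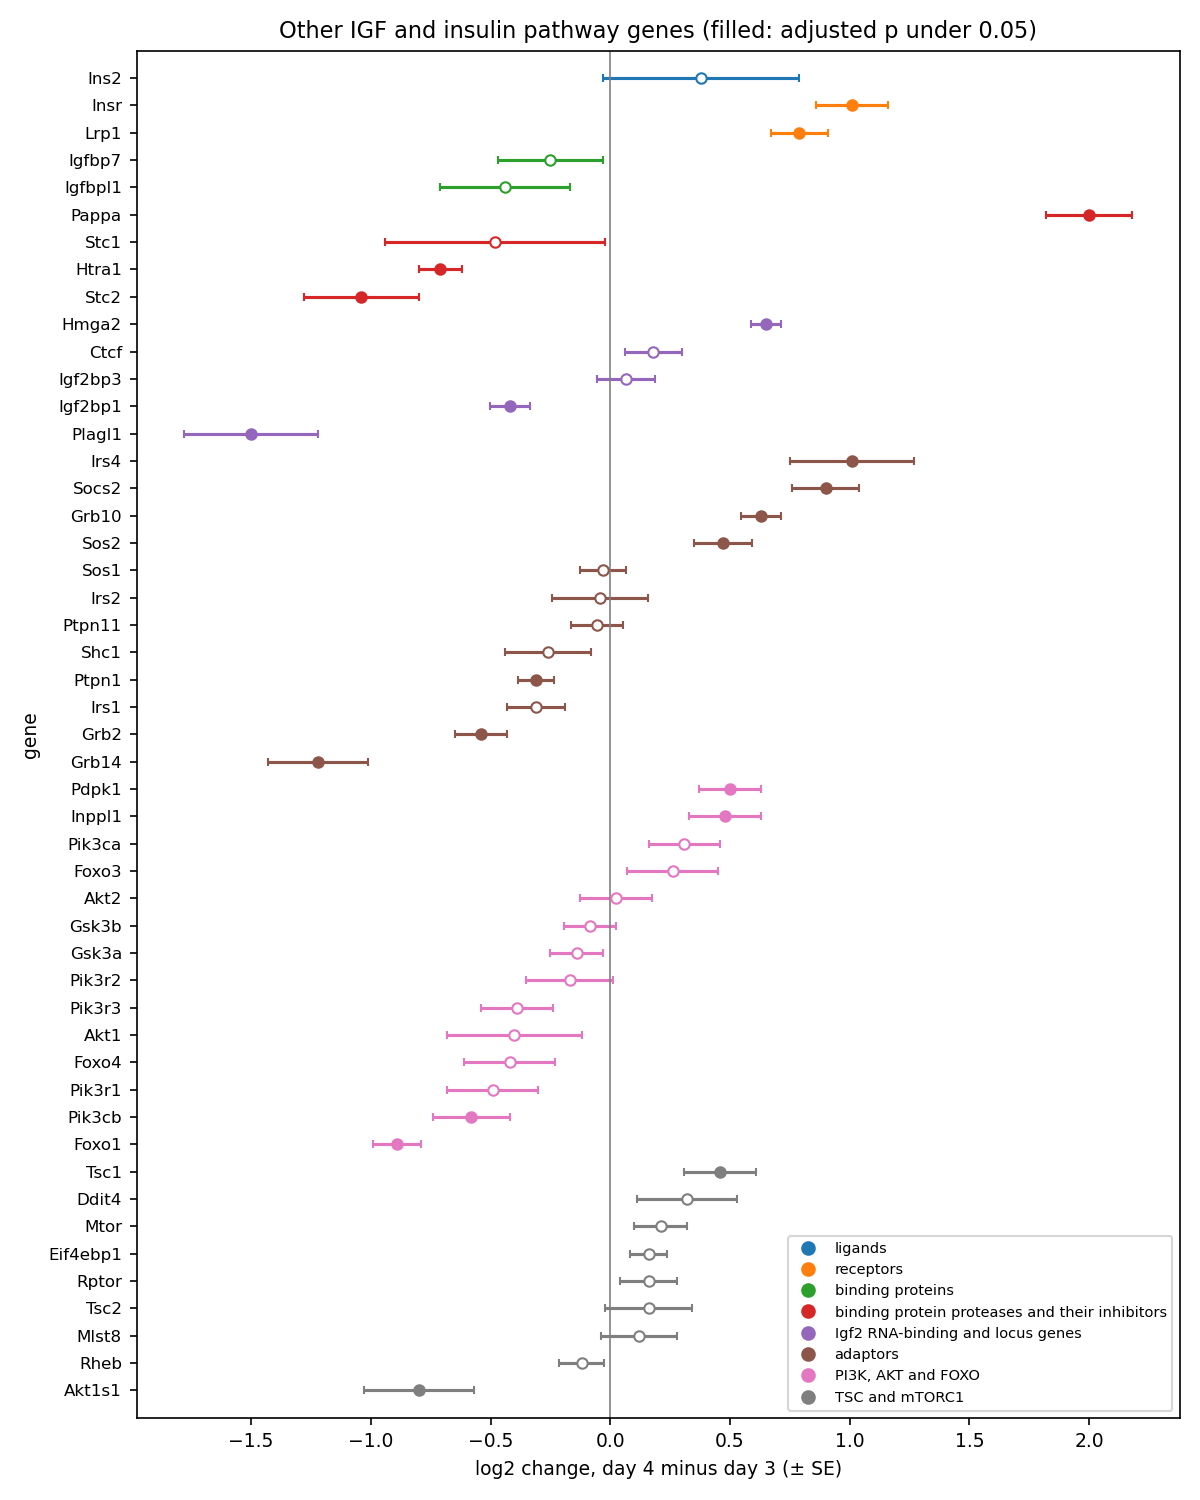
Log2 change (day 4 minus day 3, ± SE) of the 49 tested pathway genes outside the 7 members, coloured by role, with filled points for an adjusted p under 0.05. Pappa has the highest value at 2.00 and Plagl1 the lowest at -1.50, and 28 open points did not pass.

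The gate itself was checked against markers. Msgn1, whose reporter was sorted on, fell to 33.2 ± 7.06 at day 4, against 74.6 ± 15.0 at day 3 (adjusted p = 0.00723), and Tbx6, another presomitic factor, was at 124 ± 29.5 at day 4 and 132 ± 6.99 at day 3 (adjusted p = 0.672). All 8 presomitic markers lay above the filter, 1 of them higher and 2 lower, with sums of 4591 to 4867 at day 4 and 3000 to 3222 at day 3. The higher one was Rspo3, at 2695 ± 257 at day 4 and 1275 ± 39.3 at day 3 (adjusted p = 5.09e-05). Most of the difference in the sums came from Rspo3. Besides Msgn1, Wnt3a fell, to 29.4 ± 5.42 at day 4, against 78.6 ± 8.95 at day 3 (adjusted p = 0.00125). The counts of this and the following lists stand beside 11.5% higher and 10.7% lower over all genes. Sums take in every gene of a list, dim ones included. Of 7 pluripotency markers 3 fell and 0 rose, Pou5f1 to 165 ± 2.53 at day 4, against 622 ± 44.3 at day 3 (adjusted p = 6.05e-06), and their summed signal ran from 770.0 to 901 at day 4 and from 1434 to 1668 at day 3. Nanog was at 73.6 ± 23.0 at day 4 and 221 ± 19.7 at day 3 (adjusted p = 0.000738) and Sox2 was the third, while Klf4 was at 138 ± 7.23 at day 4 and 112 ± 24.0 at day 3 (adjusted p = 0.209). Of 10 endoderm markers 6 were tested, 1 rose and 3 fell, with sums of 426 to 485 at day 4 and 658 to 680.0 at day 3, while Afp, Ttr, Apoa1 and Sox7 were dim. Cardiac and lateral plate markers were higher in 2 of 6 tested and lower in 0 (sums of 289 to 323 at day 4 and 128 to 187 at day 3). Those 2 were Hand2, at 116 ± 1.77 at day 4 and 25.3 ± 12.2 at day 3 (adjusted p = 0.000785), and Myl7 (adjusted p = 0.00872). The others did not pass, with changes of 0.96 for Hand1, 0.74 for Foxf1, -0.22 for Nkx2-5 and -0.33 for Tnnt2. Endothelial and blood markers were higher in 1 of 4 tested and lower in 0 (495 to 688 at day 4 and 255 to 309 at day 3), where Pecam1 and Tal1 were dim. The one that rose was Kdr, also found in early mesoderm, at 496 ± 92.7 at day 4 and 216 ± 19.6 at day 3 (adjusted p = 0.000522), while Cdh5 was at 11.8 ± 4.30 at day 4 and 19.3 ± 0.879 at day 3 (adjusted p = 0.192). Of 5 neural markers 2 were tested and 1 fell, while Sox1, Neurog2 and Tubb3 were dim (sums of 71.7 to 109 at day 4 and 145 to 163 at day 3). The sums add signals that are not on a common scale, so single bright genes can set them. Pou5f1, Hand2 and Kdr are such genes, as is Gata6 (202 ± 22.6 at day 4 and 394 ± 24.9 at day 3). Each sum differed between the days without overlap, as did 41.4% of the single genes tested. The part of these markers in the values of the 7 genes was not tested.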

How the data were processed

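RNA of sorted cells was measured on 6 Affymetrix arrays, 1 per sample, after 2-cycle amplification and biotin labelling, per the labels' protocols. The deposited values are linear signal intensities that the authors made with MAS5, per the submitters' processing notes. Its version, its scaling target and any detection calls were not given in the sources used here. Amplification weighs transcripts toward their 3′ ends, and MAS5 values scatter widely at low signal. Trizol and a column kit are both named for the extraction and not assigned to samples, so no test of extraction as a batch was possible. The number of arrays limits the precision.

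Of 45101 probe sets, 34958 had 1 gene symbol, 932 several (left unnamed) and 9211 were not listed in the platform annotation. Of the 34958, 34754 matched RefSeq by Entrez identifier, with 0 symbols changed. The 64 control probe sets stayed out of the tests. The log2 signals were fitted with limma 3.58.1 in R 4.3.3 (lmFit, eBayes with trend, 2-sided, Benjamini-Hochberg over 12285 genes), with day as the term and the probe set of highest mean log2 signal for each gene, above the 40th percentile. Gene symbols are those of the annotation, and no array coordinates are given.

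The members and lists were chosen with earlier results of these data known. Named genes were the members with all their probe sets, up to 4 called genes per role by smallest p, a set of pathway genes whatever their values (Igf1, Insr, Igfbp6, Igfbp7, Igf2bp1, Igf2bp2, Igf2bp3, H19, Irs1, Irs2 and Grb10), the 3 tested genes nearest to each member in profile, and gate markers. The alternatives were the mean over probe sets, dropping the suffixed probe sets (_x_at, _s_at, _a_at), no filter or one at the 60th percentile, an offset of 4.14 before log2, quantile normalization, median centring, eBayes without trend, array weights, a replicate block and leaving out each array. Equal replicate numbers were not taken to mark paired arrays, since the sample titles do not say so. The correlations of deviations from the day means for arrays of equal number were 0.067, 0.011 and -0.001. With 3 arrays a day these cannot settle whether arrays were paired.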

Additional observations from a re-analysis of the deposited data

How the results depend on the processing

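The 5 members whose days were apart kept their direction, as 1 value per gene, under each alternative listed above that could give one; Igfbp2, Igfbp4 and Igfbp5 had no value without the suffixed probe sets, nor Igfbp5 with the filter at the 60th percentile. Over those, the change ran from 1.25 to 1.61 for Igf2, 0.10 to 0.67 for Igf1r, 0.64 to 0.76 for Igf2r, -1.29 to -1.08 for Igfbp2 and -2.38 to -2.20 for Igfbp3. The low end for Igf1r came from averaging its 5 probe sets, and 3 of these on their own gave -0.0179, -0.0459 and -0.618. Igfbp4 ran from 0.11 to 0.25, and Igfbp5 from -0.46 to 0.013. Over all genes, 2729 were called, against 4312 with array weights, and from 1582 to 3530 when 1 array was left out, the lowest without day 3 replicate 3 and the highest without day 4 replicate 1. Without day 3 replicate 2 it was 1808. Of the other pathway genes, 21 were called, against 12 to 20 when 1 array was left out, and 16 to 24 under the remaining settings. With the replicate block, 2884 genes and 19 pathway genes were called (9 higher and 10 lower). The calls of Inppl1 (adjusted p = 0.062) and Tsc1 (adjusted p = 0.0547) were lost in that fit. Whether the numbers pair the arrays is not known, so this fit is given for completeness. Of the 21 pathway calls, 10 held under each alternative that gave them a value, among them Pappa, Insr, Htra1, Igf2bp1 and Foxo1 under all 16 and Grb10 and Grb14 under 15. Plagl1 turned to 0.741 without the suffixed probe sets, where another probe set stands for it. The causes of the other shifts were not tested. Without detection calls, signals near 13.5 cannot be told from background.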

Other observations

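Igf2os, annotated as the gene antisense to Igf2, had 1 probe set and was picked after its values were seen. It read 27.1, 23.5 and 24.5 at day 4 and 17.2, 12.6 and 12.7 at day 3, so every day 4 array was higher, as for Igf2. The change of 0.83 ± 0.31 did not pass (limma adjusted p = 0.093), and the signals lay close to the filter level of 13.5.

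Day 4 replicate 1 was the lowest of all 6 arrays for the Igfbp4 probe sets with mean signals of 1070 and 211 at day 4, reading 725 and 136. On the brightest probe sets it was the lowest day 4 array for Igf2, Igf2r, Igfbp2, Igfbp3, Igfbp4, Igfbp5 and Insr. It was the highest day 4 array for Igf1r, with 843. Among pathway genes it was also far below the others for Akt1, a kinase named after its values were seen, with 131 on this array and 290.0 and 311 on the other day 4 arrays, against 311, 285 and 306 at day 3 (adjusted p = 0.337). Without day 4 replicate 1 the change was 0.53 for Igf1r, 1.2 for Insr, 0.732 for Socs2 and -1.69 for Plagl1. It was 0.355 for Pdpk1, 0.339 for Inppl1 and 0.301 for Tsc1, each smaller than with all 6 arrays. The relation of these values to the 3′ to 5′ ratio of that array was not tested.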
